A study of Mus musculus with 38 samples.

Results

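The Hox genes are the transcription factor genes of the Hoxa, Hoxb, Hoxc and Hoxd clusters, and all non-control probes whose gene name is Hox, a cluster letter and a number were taken. This gave 51 probes for 39 genes out of 40628 probes for 29411 gene names: 11 genes of Hoxa, 10 of Hoxb, 9 of Hoxc and 9 of Hoxd. Of the 39 genes, 12 had 2 probes and the others had 1, and all 39 names were found in the RefSeq gene table (GRCm38.p6). Their messenger RNA was read on 38 Agilent arrays of 1 colour, hybridised with RNA of epididymal stromal vascular cells. These are the cells left of a fat pad once adipocytes are removed, and the labels call them infiltrating macrophages. The mice were C57BL/6J, divided at weaning at 3 to 4 weeks of age into groups of 30 animals. The low fat control diet (LFC, 10 arrays) had 10% of its calories from fat, and the high fat control diet (HFC, 10 arrays) had 60% and more sucrose. HF5, HF20 and HF75 (6 arrays each) received the high fat diet together with 5, 20 or 75 µg of the botanical formulation KAL-1. For LFC and HFC the 10 arrays are 1 each for day 6 (D6), day 10 (D10), day 14 (D14), week 0 (W0) and then every 3 weeks from week 3 (W3) until week 18 (W18). The doses had 1 array at each time point from W3. The labels do not say whether an array holds the RNA of 1 animal or of several, and no diet has replicate arrays at a time point. Below, an array is named by its diet and time point.

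Hox proteins bind DNA through the homeodomain, and many of them bind together with the TALE homeodomain proteins Pbx and Meis. During development the genes of a cluster are switched on in the order in which they lie on the chromosome, those of low paralog number first and towards the head, those of high paralog number later and towards the tail. Polycomb and Trithorax proteins then hold the silent and the active genes of each cell in their state, so that cells of the adult connective tissues and fat pads still carry a Hox pattern of the place where they arose.

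The probe sequences show what the arrays measured of these genes. The letters TGGTT, then any base, then CAGAAC lie in the part of the homeobox that encodes the DNA recognition helix. They stood in 3 Hox probes, those of Hoxa9, Hoxb3 and Hoxc11, of which that of Hoxc11 is shown with these letters in capitals, 5′ to 3′.
Hoxc11: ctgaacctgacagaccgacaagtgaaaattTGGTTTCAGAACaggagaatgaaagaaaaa
The letters CCNTGGATG, from the stretch that encodes the hexapeptide through which Hox proteins contact Pbx, stood in 2 Hox probes and are in capitals here.
Hoxa6: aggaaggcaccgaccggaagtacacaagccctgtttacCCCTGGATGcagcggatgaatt
Hoxd3, the less bright of its 2 probes: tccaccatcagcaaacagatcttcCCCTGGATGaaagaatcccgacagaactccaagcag
Both motifs were searched on both strands and do not overlap in these probes. The homeobox letters were in 5 of all 40628 probes (0.0123%), of which the 2 that are not Hox probes belong to Asb1 and Sult4a1, and the hexapeptide letters were in 97 probes (0.239%). The homeobox is the part of the genes that is most alike. Aligned end to end without gaps, the 1263 pairs of probes of different Hox genes had a median identity of 35% and a highest identity of 66.7% (Hoxa13 and Hoxb13, 40 of 60 bases). Thus no pair of Hox probes was near identical in this alignment. The longest run of shared bases was 22, between the Hoxa9 probe and the less bright of the 2 Hoxb3 probes.

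The level of a probe is the log2 of its processed signal minus the log2 of the 75th percentile of its array, so 0 is the 75th percentile of that array and 1 unit is a 2-fold step. Levels of 1 gene are compared between arrays here, never levels of different probes. A gene was called detected on an array where at least 1 of its probes was marked well above background, and a value that is not well above background is an upper bound only. The arrays were not alike in other respects. HF5 W12 and HF75 W3 were the dimmest, with 75th percentiles of 25.8 and 88.4 scanner units against up to 1983. On HFC W12 and HF75 W12, 10.4% and 13.4% of the probes had only spots marked as outliers and were left out. Tcf21 and Wt1, transcription factors of visceral fat stroma and mesothelium, lay between -8.56 and -1.43 and between -7.20 and -3.73 on LFC D6, LFC D10, HFC W6, HF5 W6, HF20 W6, HF75 W6 and HF5 W12. Macrophage markers were present throughout (6 to 8 of 8 on each array), beside adipocyte (7 or 8 of 8) and stromal progenitor markers (5 to 8 of 8), so RNA of several cell types was in these samples. In such bulk samples fewer cells of a type and less RNA per cell cannot be told apart. The spread of the Hox levels and the likeness of their profiles are also given without these 10 arrays, over the other 28.

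The Hox genes above background formed 1 unbroken run in each cluster. Of the 39 genes, 29 were detected on at least 19 of the 38 arrays. Counted by probe this was 36 of 51, beside 72.0% of all probes, so Hox genes as a whole were detected about as often as other genes. In Hoxa the run ended at Hoxa11. It went in Hoxb from Hoxb2 to Hoxb9, in Hoxc from Hoxc4 to Hoxc10 and in Hoxd from Hoxd3 to Hoxd10. Counted by paralog number, 6 of 8 anterior genes (numbers 1 to 3), all 15 central genes (4 to 8) and 8 of 16 posterior genes (9 to 13) reached this number and are called expressed below. Hoxa3, Hoxa7, Hoxb6, Hoxc4, Hoxc6 and Hoxd4 were detected on all 38 arrays. The same number of genes, 29, was detected on at least this share of the 28 other arrays.

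**Figure D1:**
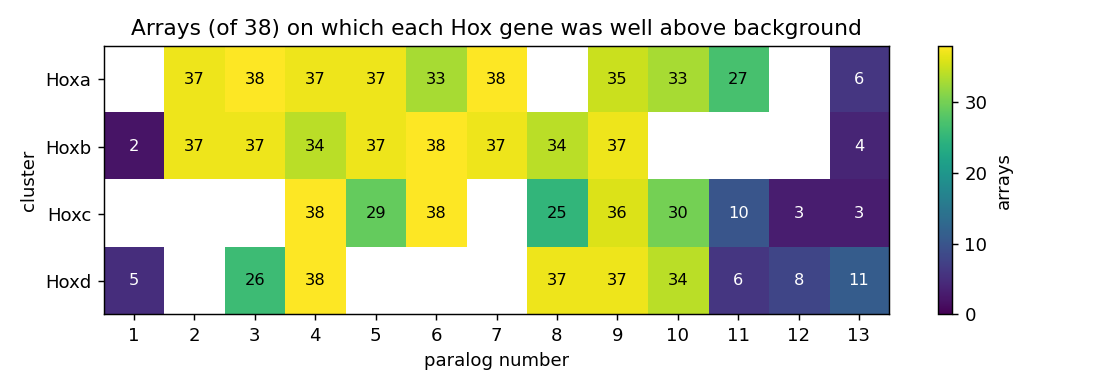
Each cell gives the number of arrays, of 38, on which a Hox gene was well above background, with the clusters as rows and the paralog number on the x axis. White cells hold no value. Genes detected on at least 19 arrays lie side by side in each cluster, and the counts are lowest at Hoxb1, Hoxd1 and paralogs 11 to 13.

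The 10 genes under this limit lie at the ends of the clusters. At the anterior end, Hoxb1 was detected on 2 arrays and Hoxd1 on 5. Hoxb1 is a gene of hindbrain patterning. At the posterior end, Hoxa13 was detected on 6 arrays, Hoxb13 on 4, Hoxc11 on 10, Hoxc12 on 3, Hoxc13 on 3, Hoxd11 on 6, Hoxd12 on 8 and Hoxd13 on 11. Hoxa13 and Hoxd13 are known for patterning the digits and the lower urogenital tract, Hoxb13 for the prostate and Hoxc13 for hair. Of the genes of paralog numbers 11 to 13, only Hoxa11 passed, with 27 arrays. Hoxb13 reached -1.31 on HF75 W12, -3.54 on HF20 W3, -4.45 on HFC W6 and -5.74 on HF20 W12, against a median of -7.97. Hoxd13 reached -2.90 on HF20 W15, -2.93 on HF75 W3 and -3.50 on HFC W15, against a median of -7.44. So these posterior genes were not low everywhere, but they were above background on few arrays. HF20 W12, which had 36 of 39 Hox genes detected, the most of all arrays, also had 88.1% of all its probes well above background. On HF5 W12, the dimmest array, 11 Hox genes and 41.1% of all probes were.

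Hox levels had a wider spread over the arrays than the median probe. For the 36 Hox probes well above background on at least 19 arrays, the median SD of a probe's level over the arrays was 1.09 log2, against 0.79 for all 29252 such probes, and over the 28 other arrays it was 0.93 against 0.68. Of these 36 probes, 6 (16.7%) were above the 90th percentile of all probes (1.55). The median SD was 0.77 for the expressed anterior genes, 1.11 for the central and 1.40 for the posterior genes. Over the 28 other arrays these were 0.69, 0.88 and 1.09. The highest were Hoxa11 (2.48, and 2.55 over the 28) and Hoxa10 (1.98 and 2.08).

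The anterior genes had the smallest spread of the 3 groups. Hoxa2, a selector gene of the pharyngeal arches, ran from -4.98 (LFC W6), with a median of -3.16, to -1.96 (LFC W0). Hoxa3, needed for the thymus and parathyroid, ran from -5.03 (HFC D14), with a median of -3.34, to -1.17 (HF5 W12). Both were high on LFC D10, where Hoxa2 and Hoxa3 lay 0.99 and 1.67 above their own medians. Hoxb2 ran from -0.54 (LFC D6), with a median of 0.92, to 2.46 (HF75 W3), and Hoxb3 ran from -3.54 (HF5 W6), with a median of -1.92, to 0.10 (HF75 W3). Hoxd3 was detected on 26 arrays only and ran from -7.08 (HF5 W6, not well above background), with a median of -4.27, to -1.47 (HF20 W12).

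Several central genes were low on the arrays of week 6. Hoxa5, known from the lung and the trunk skeleton, was at -4.80 on LFC W6, -4.34 on HFC W6, -4.17 on HF5 W6, -3.82 on HF20 W6 and -2.77 on HF75 W6. Its median over the 38 arrays was -1.49, and of the arrays of other weeks only HF5 W12 (-3.84, not well above background) and HF20 W12 (-3.18) were below HF75 W6. Hoxc4 was at -2.05, -1.48, -1.25, -1.19 and 0.25 on LFC W6, HFC W6, HF5 W6, HF20 W6 and HF75 W6, beside a median of 1.08. These are the levels of the brighter Hoxc4 probe. Its other probe was at -4.29, -4.30, -4.81, -3.81 and -4.22 on the same arrays, against its own median of -3.97, so the low Hoxc4 levels at week 6 rest on 1 probe. Hoxa5 was below its median at week 6 in all 5 diets, LFC included. Hoxb8, which acts in myeloid progenitors, was not well above background on HF5 W6 (-8.44) and HF20 W6 (-6.92), and its median was -2.36. Hoxb5 and Hoxb6 were low on the 4 arrays with the high fat diet. Hoxb5 lay -1.41, -1.73, -1.68 and -1.34 from its median on HFC W6, HF5 W6, HF20 W6 and HF75 W6, and 0.03 on LFC W6. Hoxb6 differed from its median in the same order by -1.43, -1.66, -1.30 and -0.76, and by 1.03 on LFC W6. Tcf21 was low on the same 4 arrays and was at -1.79 on LFC W6. The mean level of the 7 skeletal muscle markers was 4.76 on LFC W6, 0.98 on HFC W6, 1.12 on HF5 W6, 2.01 on HF20 W6 and 1.39 on HF75 W6, against a median of -1.64 over all arrays. That of the 8 lymphocyte markers was 0.93, 1.75, 1.48, 0.54 and 0.19 in the same order, the highest of each diet, against a median of -1.88. All 7 muscle and all 8 lymphocyte markers were detected on each of the 5 arrays, and the part of these cell types in the Hox levels was not tested. Hoxc10, a posterior gene of the hindlimb and lumbar spinal cord, was high on the same arrays and lay 1.22, 1.21, 1.55, 1.60 and 1.48 above its median on LFC W6, HFC W6, HF5 W6, HF20 W6 and HF75 W6.

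Of the other central genes, Hoxa7 ran from -0.04 (LFC W6), with a median of 2.36, to 3.37 (LFC W12), and Hoxb6 ran from -0.97 (HF5 W12), with a median of 1.30, to 3.90 (HF20 W12). Hoxc6, known from the thoracic skeleton and the mammary gland, ran from -1.73 (LFC D10), with a median of 0.36, to 1.95 (LFC W12). Hoxb4, which acts in blood stem cells, ran from -5.91 (HF5 W9, not well above background), with a median of -2.35, to 0.02 (HF5 W12). Hoxa7, Hoxb6 and Hoxc6 were above background on all 38 arrays, and Hoxb4 on 34. In the middle of Hoxd, Hoxd8 ran from -1.85 (HF20 W9), with a median of -0.38, to 0.80 (HF20 W12), and Hoxd9 ran from -3.95 (HF5 W12, not well above background), with a median of -1.50, to 0.10 (HF20 W12). Hoxa6 ran from -7.45 (HF5 W9, not well above background), with a median of -3.79, to 0.17 (HF5 W12). The highest levels of Hoxb5, Hoxb7, Hoxb8 and Hoxd4 were all on HF75 W3, the dim array, at 1.33, 3.67, 0.53 and 3.77. On the week 3 arrays of the other diets, Hoxd4 was at 2.97 (LFC), 2.49 (HFC), 2.81 (HF5) and 2.57 (HF20).

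Posterior Hoxa genes and Hoxc8 had opposite patterns on 3 arrays. Hoxa10, which patterns the lumbar spine and the reproductive tract, ran from -8.89 (LFC W12, not well above background), with a median of -3.05, to -0.63 (HF20 W15). It was not well above background on LFC D10 (-7.32), LFC W9 (-8.11), HFC W9 (-8.31), LFC W12 (-8.89) and HF5 W12 (-3.91). Outside these 5 arrays its lowest level was -4.83, on HF20 W9. Hoxa11, a gene of the limb and uterus, was at -8.39, -8.27 and -8.80 on LFC W9, HFC W9 and LFC W12, again not well above background, and Hoxd10 was -2.39, -1.64 and -3.38 from its median there, the last not well above background. Hoxc8, a gene of the thoracic skeleton, had its highest levels on LFC W12 (-1.31), HFC W9 (-1.72), LFC W9 (-2.15) and HF75 W12 (-2.41), against a median of -5.28. So on LFC W9, HFC W9 and LFC W12 Hoxa10 and Hoxa11 were not above background while Hoxc8 was high, whereas on HF75 W12 Hoxc8 was high with Hoxa10 at -3.43. The same 4 arrays had the highest mean level of the 8 adipocyte markers, 5.41 on LFC W9, 5.33 on HFC W9, 4.97 on LFC W12 and 5.43 on HF75 W12, against a median of 2.28 over all arrays. Of the 8 adipocyte markers, all 8 were detected on each of the 4. The mean level of the 12 epididymis markers was -4.47, -7.71 and -7.91 on LFC W9, HFC W9 and LFC W12, with 8, 2 and 3 of the 12 detected, against a median of -3.13. It was also low on HF20 W6 (-7.93), HF5 W6 (-7.70) and HF75 W6 (-7.56). There Hoxa10 was well above background, at -2.56, -3.11 and -1.48, and Hoxa11 was so on HF20 W6 and HF75 W6 but not on HF5 W6. The part of these cell types in the Hox levels was not tested. By diet, Hoxa10 was at -8.89 to -0.77 with a median of -3.53 on LFC, -8.31 to -0.87 with a median of -2.72 on HFC, -3.91 to -1.98 with a median of -2.98 on HF5, -4.83 to -0.63 with a median of -2.96 on HF20 and -4.21 to -1.31 with a median of -3.27 on HF75. Hoxc8 was at -7.68 to -1.31 with a median of -5.90 on LFC, -6.62 to -1.72 with a median of -5.00 on HFC, -6.84 to -3.96 with a median of -5.29 on HF5, -7.15 to -4.07 with a median of -5.95 on HF20 and -5.69 to -2.41 with a median of -4.98 on HF75. All 5 ranges overlapped for both genes.

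Hoxa11 was high on single arrays of every diet. It reached 0.93 on HF75 W3, 0.44 on LFC W6, 0.20 on HF20 W15, -0.26 on HFC W15, -0.56 on HF5 W9 and -0.87 on HFC D14, against a median of -3.85. Hoxd13 was well above background on 5 of these 6 arrays, LFC W6 being the exception, and on 6 others. These are counts of its brighter probe, and its other probe was well above background on 4 arrays in all. Epididymis markers were present to different degrees on the 6 arrays, with mean levels from -2.74 (LFC W6) to 1.19 (HF20 W15). The mean level of the 7 testis and sperm markers was 2.73 on HF5 W9, 0.70 on HFC D14, 0.24 on LFC W6, -0.90 on HF75 W3, -2.19 on HFC W15 and -3.89 on HF20 W15, with 7, 7, 7, 4, 6 and 6 of the 7 detected, against a median of -3.14 over all arrays. Their part in the Hoxa11 levels was not tested. Hoxc9, another thoracic gene, had an SD of 1.32 over the 38 arrays, against 0.83 for Hoxa9 and 0.87 for Hoxd9. Over the 28 other arrays it was 0.78, against 0.81 and 0.87. Hoxc9 lay between -1.50 (HFC D14) and 1.93 (LFC W12) on 36 arrays. It was at -6.28 on LFC D10 and -3.34 on HF5 W12, not well above background on either. Both arrays also held brown fat RNA, with Ucp1, the thermogenic uncoupling protein, at 5.11 and 6.93. Ucp1 was at 3.83 on LFC D6, where Hoxc9 was at -0.19.

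**Figure D2:**
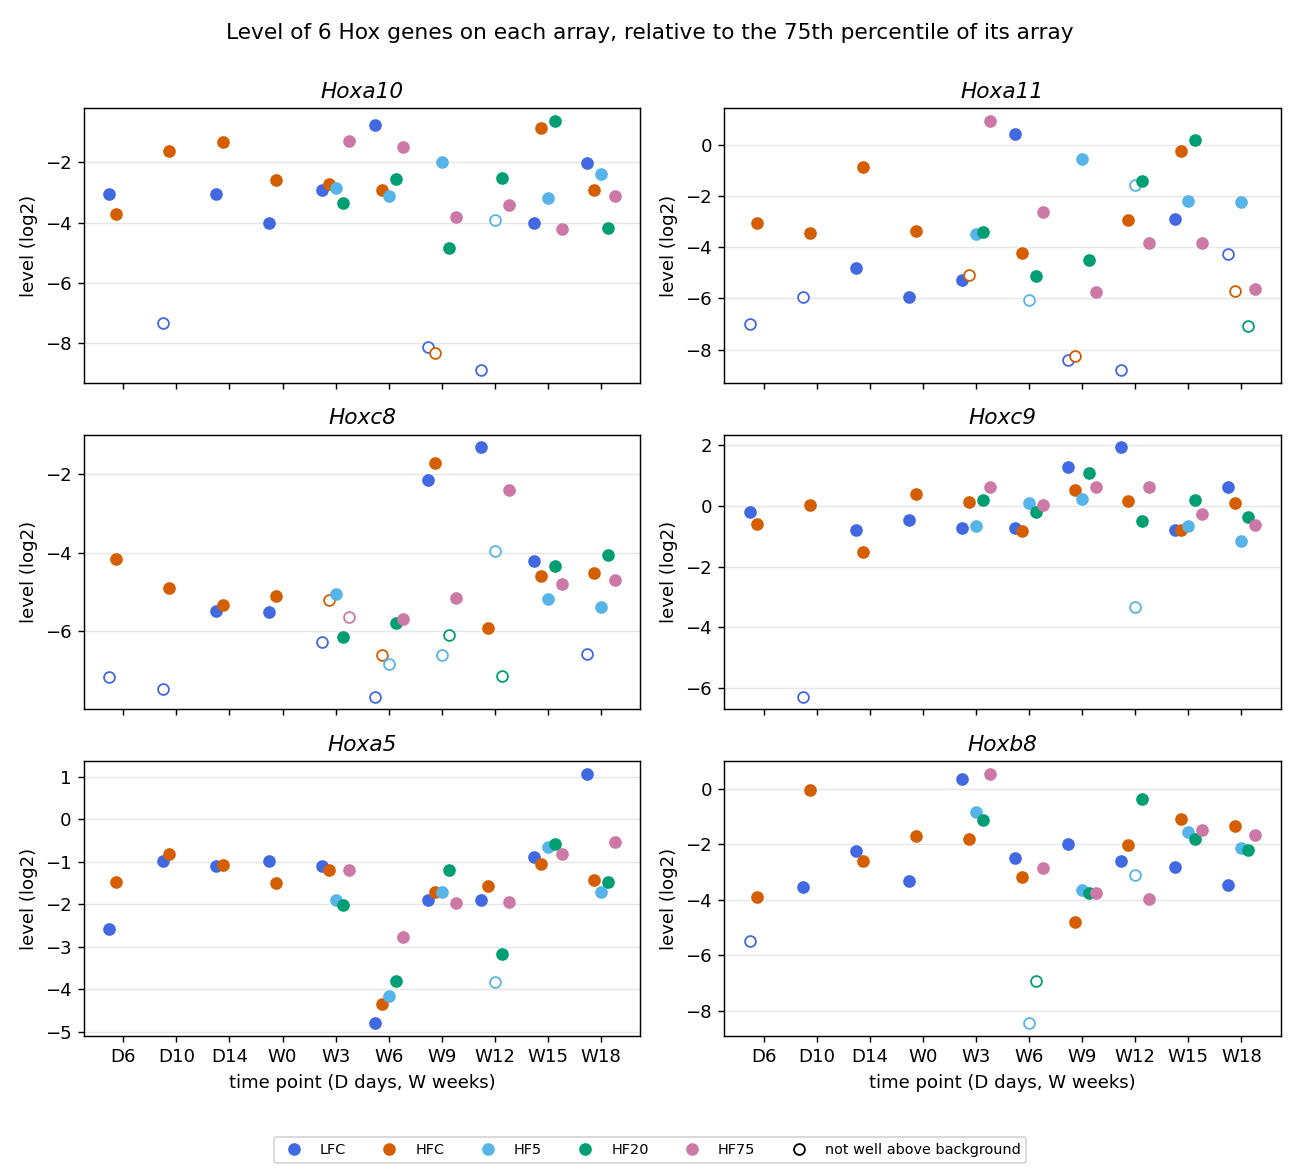
Level (log2, relative to the 75th percentile of the array) of 6 Hox genes on each array, by time point on the x axis and diet by colour; open circles are values not well above background. Hoxa10 and Hoxa11 lie at their lowest on LFC W9, HFC W9 and LFC W12 where Hoxc8 is high, Hoxc9 is low only on LFC D10 and HF5 W12, Hoxa5 is low at week 6, and Hoxb8 is low on HF5 W6 and HF20 W6.

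**Figure D3:**
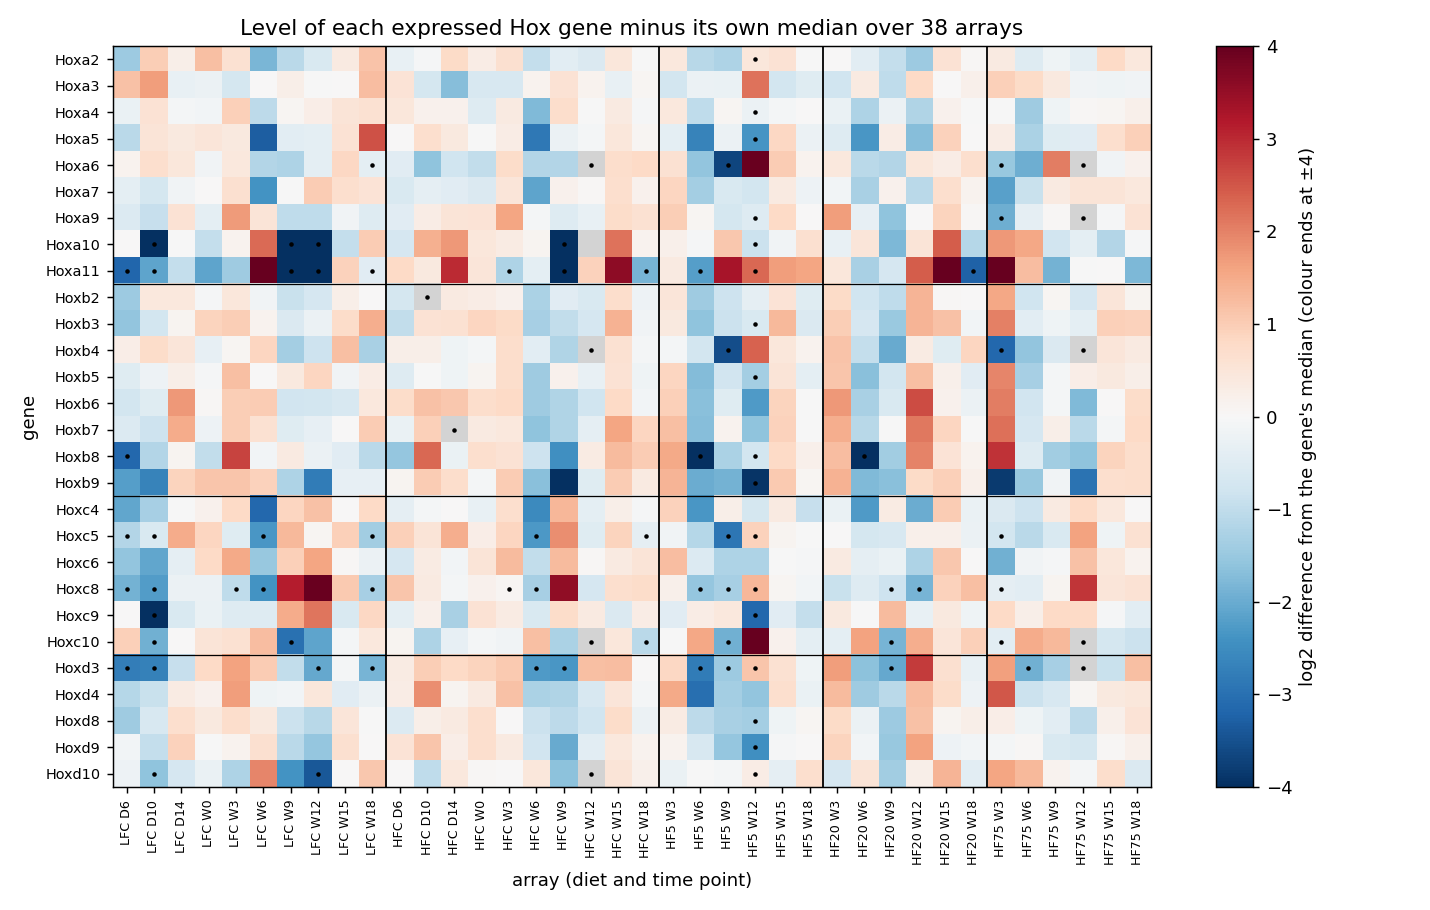
Level of expressed Hox genes (rows) on each array (columns, by diet and time point) minus the gene's own median over the 38 arrays, in log2; the colour ends at 4 in either direction, dots mark values not well above background and grey cells have only spots marked as outliers. The blue cells of Hoxa10 and Hoxa11 and the red cells of Hoxc8 on LFC W9, HFC W9 and LFC W12, and the blue cells of Hoxb5 and Hoxb6 at week 6 in all diets but LFC, are the patterns described in the text.

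The number of Hox genes above background was then counted by diet. The number of Hox genes detected ran from 21 (LFC D10) to 30 on the LFC arrays with a median of 26.5, from 26 to 34 on the HFC arrays with a median of 30.0, from 11 (HF5 W12) to 31 on HF5, from 26 to 36 on HF20 and from 23 (HF75 W3) to 31 on HF75, so the ranges overlapped. The number of Hox genes detected on no array of a diet was 8 for LFC, 0 for HFC, 7 for HF5, 2 for HF20 and 2 for HF75. Those of LFC were Hoxa13, Hoxb1, Hoxb13, Hoxc11, Hoxc12, Hoxc13, Hoxd11 and Hoxd13, each detected on 1 to 4 of the 10 HFC arrays. HFC D14, HFC W12 and HFC W15 held most of these detections, with 82.9%, 91.2% and 81.0% of all probes well above background. The share of all probes with such a pattern was not counted, and the diets had 10 or 6 arrays. These counts are therefore not read as a result about Hox genes. The HFC arrays also had more probes of any kind well above background at 8 of the 10 time points, and no test was made of this difference in number.

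Whether the high fat diet moved Hox expression was asked by comparing HFC with LFC over the 10 time points with limma, with the time point as a block. No probe of any gene passed an adjusted p of 0.05, and 9.08% of the 31029 probes had an unadjusted p below 0.05. Of the 36 Hox probes tested, for 29 genes, 0 passed, and 1 (Hoxa9) had an unadjusted p below 0.05. The 10 genes at the silent ends did not pass the filter on dim probes. Of the 29 genes, 18 had a positive and 11 a negative difference, with a median of 0.09 log2 beside 0.01 for all probes. Under the alternative settings the median of the Hox genes ran from -0.12 to 0.28, so its sign turned. The SEs of the Hox differences ran from 0.16 to 0.86. Differences larger than their SE did not pass either, that of Hoxa9 among them, so differences of such a size could be missed here.

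The 3 Hox genes of smallest p are given although they did not pass. Hoxa9, which acts in blood cell progenitors, was at -3.10 to -0.37 with a median of -2.52 on the LFC arrays and -2.57 to -0.50 with a median of -1.65 on the HFC arrays, so the ranges overlapped. It was higher on HFC at 7 of 10 time points, by 0.48 log2 (SE 0.20, p = 0.0364, adjusted p = 0.545). Hoxa3 was at -4.05 to -1.67 with a median of -3.32 on LFC and -5.03 to -2.75 with a median of -3.45 on HFC, a difference of -0.55 (SE 0.26, adjusted p = 0.545), and it was lower on HFC at 6 of 10 time points. Its other probe had a difference of 0.0932 (SE 0.34). Hoxc5 was at -7.10 to -3.28 with a median of -4.96 on LFC and -7.05 to -2.91 with a median of -4.07 on HFC, a difference of 0.50 (SE 0.27, adjusted p = 0.554). At the 6 time points where it was well above background on both arrays, it was higher on HFC at 2 and lower at 4. Hoxc5 was not well above background on 4 LFC and 2 HFC arrays. With the normexp background correction the differences of Hoxa9 and Hoxc5 were -0.0472 and -0.57, and with array brightness as a covariate that of Hoxa3 was 0.0507. Thus none of the 3 had a direction that held under all settings. The difference of Hoxa11 was the largest in size, 1.57 with an SE of 0.86.

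**Figure D4:**
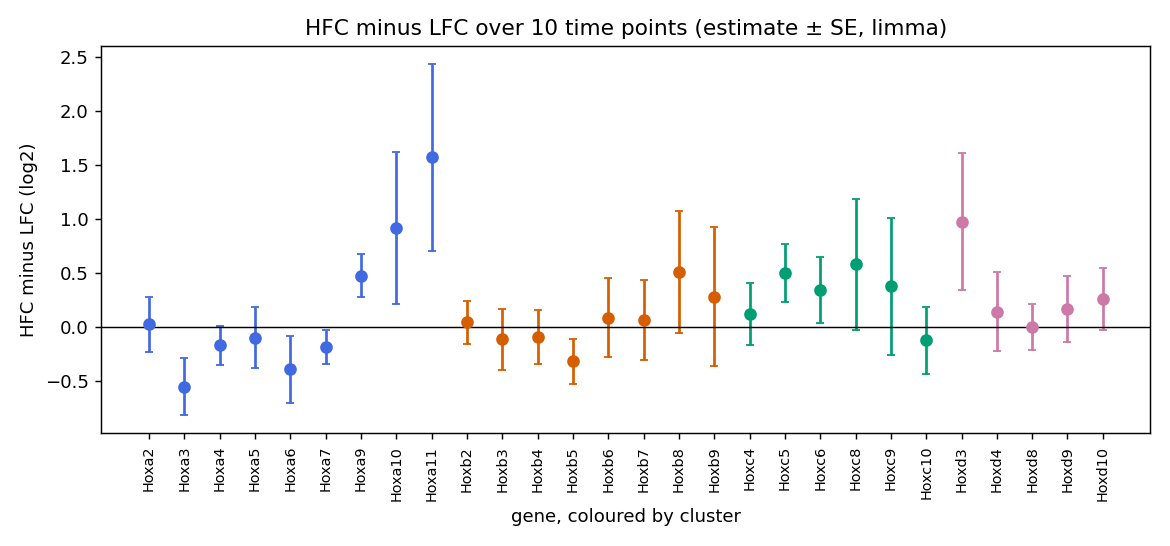
Difference between HFC and LFC over 10 time points (log2, limma estimate, bars are ± 1 SE) for Hox genes tested, ordered along each cluster and coloured by cluster. No gene passed an adjusted p of 0.05. The largest SE is that of Hoxa11, 0.86.

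Whether the difference between HFC and LFC changed with time was tested in the same way. No probe passed, 4.37% of all probes and 1 Hox probe (Hoxa6) had an unadjusted p below 0.05, and 24 of the 29 Hox genes had a difference that became more negative with time (median -0.02 log2 per week, all probes 0.00306). Hoxa6 was one of the 5 others, at 0.10 log2 per week (SE 0.0353, p = 0.0159, adjusted p = 0.981), fitted on 19 arrays because its spots on HFC W12 were marked as outliers. Hoxa5 and Hoxc4 had -0.0769 and -0.0753 log2 per week (adjusted p = 0.981 for both), and the other Hoxc4 probe had 0.0304. Under the alternative settings the median of the Hox genes ran from -0.04 to 0.01 log2 per week, so its sign turned. Within LFC, 3.89% of the 28468 probes had an unadjusted p below 0.05 for a slope on time and none passed. Hoxc9 (0.155 log2 per week, SE 0.0842), Hoxb3 (0.0624, SE 0.0392) and Hoxc8 (0.137, SE 0.0866) had the smallest p among Hox genes, with an adjusted p of 0.997 for each. Within HFC, 7.87% of the 30875 probes had an unadjusted p below 0.05 and none passed. The smallest p values were those of Hoxa6 (0.0800 log2 per week, SE 0.0368, adjusted p = 0.648) and Hoxb6 (-0.0652, SE 0.0404). No Hox probe had an unadjusted p below 0.05 for a slope within either diet. Time, the age of the mice and the slide and scan of the arrays go together in these slopes and cannot be told apart.

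The doses of the formulation were compared with HFC from week 3 to week 18. The 30 arrays of all 5 diets went into 1 limma fit, in which 33 Hox genes (42 probes) passed the filter. These comparisons share the 6 HFC arrays. No probe of any gene passed in any of them, and no Hox probe had an unadjusted p below 0.05, while the share of all 33711 probes below it was 4.73% for HF5, 1.53% for HF20, 1.95% for HF75, 1.74% for the mean of the doses and 3.22% for HFC against LFC over the same weeks. For HF5, 26 of the 33 genes had a negative difference (median -0.18, all probes -0.03). For HF20 it was 17 of 33 (median -0.07, all probes 0.04), and for HF75 it was 12 (median 0.18, all probes 0.04). The median SE of a Hox difference was 0.53, larger than each of these medians. Under the alternative settings the medians ran from -0.23 to 0.25 for HF5, -0.16 to 0.29 for HF20 and -0.13 to 0.30 for HF75. So the sign of each median turned under some setting. HF5 includes HF5 W12, where only 11 Hox genes were detected. Of the genes of smallest p, those given here are Hoxd12 (-1.02, SE 0.53) and Hoxc9 (-0.80, SE 0.49) for HF5 and Hoxa4 (-0.40, SE 0.22) and Hoxd8 (0.45, SE 0.32) for HF20. For HF75 they were Hoxb3 (0.66, SE 0.35), Hoxa9 (-0.81, SE 0.48) and Hoxd4 (0.57, SE 0.38). Over the same weeks the difference of Hoxb3 between HFC and LFC was -0.58 (SE 0.35). These are values of its brighter probe, and the other probe had the opposite sign in both, -0.57 (SE 0.63) for HF75 against HFC and 0.57 (SE 0.63) for HFC against LFC. For HFC against LFC, Hoxd12 (0.94, SE 0.53) and Hoxb5 (-0.51, SE 0.33) stood beside Hoxb3. For the mean of the doses the genes were Hoxd12 (-0.80, SE 0.43) and Hoxc6 (-0.56, SE 0.44). With the normexp background correction the difference of Hoxd12 was 0.37 for HF5 and 0.0823 for the mean of the doses and that of Hoxa4 was 0.10 for HF20, and with scan day as the block that of Hoxc6 was 0.0248 for the mean of the doses, so these signs turned. Hoxd12 was well above background on 3 HFC arrays and on no HF5 array, so its level at most time points is a bound. It passed the filter on dim probes through the HFC arrays alone. The signs of its differences, all of which involve HFC, are therefore not independent of the filter.

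At single time points the HFC and LFC arrays differed in many Hox genes, with no replicate to test the difference. A gene was compared where it was well above background on at least 1 of the 2 arrays, and counted where the arrays lay at least 1 log2 apart. At D10 the count was 21 of 30 Hox genes (17 higher on HFC, 4 lower), beside 44.5% of all probes (20.7% higher, 23.7% lower). The median difference of the Hox genes was 1.18 log2 against -0.14 for all probes. Among genes well above background on both arrays, Hoxb9 was 12.9-fold higher on HFC (1.06 against -2.63), Hoxb8 11.2-fold and Hoxd4 6.76-fold. Hoxc9 was at 0.02 on HFC D10, at least 74.5-fold higher than on LFC D10, where it was not well above background. Hoxa10 was at least 23.9-fold higher in the same way. LFC D10 is an array with Tcf21 at -6.77 and Ucp1 at 5.11, against 0.61 and -5.05 on HFC D10. LFC D10 was also dimmer, with a 75th percentile of 262 scanner units against 936 on HFC D10. So was LFC D6, with 229 against 675 on HFC D6. At D6, where LFC D6 had Tcf21 at -6.42 as well, 12 of 31 Hox genes were higher on HFC and 0 lower, beside 15.9% of all probes higher and 12.5% lower, led by Hoxb9 (4.96-fold), Hoxc4 (3.28-fold, by its brighter probe only) and Hoxb6 (2.79-fold).

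Week 6 went the other way. At W6, 16 of 29 Hox genes were at least 1 log2 apart, 14 of them lower on HFC, beside 23.4% of all probes (10.2% higher, 13.2% lower). The median was -0.71 for the Hox genes and 0.09 for all probes. Hoxa11 was 25.5-fold lower on HFC (-4.24 against 0.44), Hoxb9 5.93-fold (-1.62 against 0.95) and Hoxb6 5.50-fold (-0.13 against 2.33). Here it was the HFC array that was low in Tcf21, at -4.36 against -1.79. At D6, D10 and W6 the array with lower Tcf21, whichever its diet, was lower in most Hox genes at least 1 log2 apart. The 7 visceral fat and mesothelium markers, Tcf21 among them, did not go with the Hox levels at every time point. At W15 their mean level was 0.01 on HFC and 0.56 on LFC, while 11 Hox genes were higher on HFC and 0 lower. At W18 it was 1.95 on HFC and -1.01 on LFC, with a Hox median difference of -0.37. The part of Tcf21 or these markers in the difference between diets was not tested. Without D6, D10 and W6 no Hox probe passed either.

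At W12 the count was 15 of 29 (9 higher, 6 lower) beside 53.6% of all probes (39.0% higher, 14.6% lower). All probes had a median of 0.51 there and the Hox genes one of 0.16. The largest differences were those of Hoxc8, 24.6-fold lower on HFC, Hoxb9, 4.95-fold higher, and Hoxd12, 4.12-fold higher, while Hoxa11 was at least 30.9-fold higher. The W12 pair is that of LFC W12, with a mean adipocyte marker level of 4.97 against 2.50 on HFC W12, and of HFC W12 with its many outlier spots. At W15, 11 of 34 were higher on HFC and 0 lower, beside 11.1% and 8.89% of all probes, led by Hoxa10 (8.77-fold), Hoxa11 (6.29-fold) and Hoxb8 (3.33-fold), and Hoxd13 was at least 15.6-fold higher. At W18 it was 11 of 27 (6 higher, 5 lower; all probes 34.5%, 21.4% higher and 13.1% lower), with Hoxa5 5.60-fold lower on HFC, Hoxb8 4.34-fold higher and Hoxb3 3.02-fold lower by its brighter probe. The other Hoxb3 probe lay in the opposite direction, at -2.26 on HFC W18 and -6.53 on LFC W18, where it was not well above background. Fewer genes were apart at the other time points. At D14 it was 7 of 33, 5 higher and 2 lower (all probes 22.4%, 12.8% higher and 9.56% lower), with Hoxa11 15.2-fold higher on HFC, Hoxa10 3.34-fold higher and Hoxd3 3.27-fold higher. At W0 it was 4 of 30, 3 higher and 1 lower (all probes 15.6%, 10.2% higher and 5.43% lower), and at W3 4 of 29, 3 higher and 1 lower (all probes 19.7%, 10.2% higher and 9.46% lower). At W9 it was 5 of 27, 1 higher and 4 lower (all probes 13.7%, 6.73% higher and 6.96% lower). At W9 both arrays were rich in adipocyte RNA, and Hoxb9 was 11.6-fold lower on HFC (-4.72 against -1.19).

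The same count was made between 2 arrays of equal diet and elapsed day, since W0 and D14 are the same day of the experiment. Between these, 6 of 30 Hox genes were at least 1 log2 apart in LFC, 2 higher at W0 and 4 lower (all probes 31.9%, 11.4% and 20.6%), and 9 of 33 in HFC, 2 higher and 7 lower (all probes 24.5%, 6.50% and 18%). Thus the counts at W0, W3 and W9 were no larger than those between the 2 arrays of the same day in either diet. The count at D14, 7 of 33, was larger than that of the LFC pair but not than that of the HFC pair. No Hox gene was at least 2-fold apart in the same direction at every time point.

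**Figure D5:**
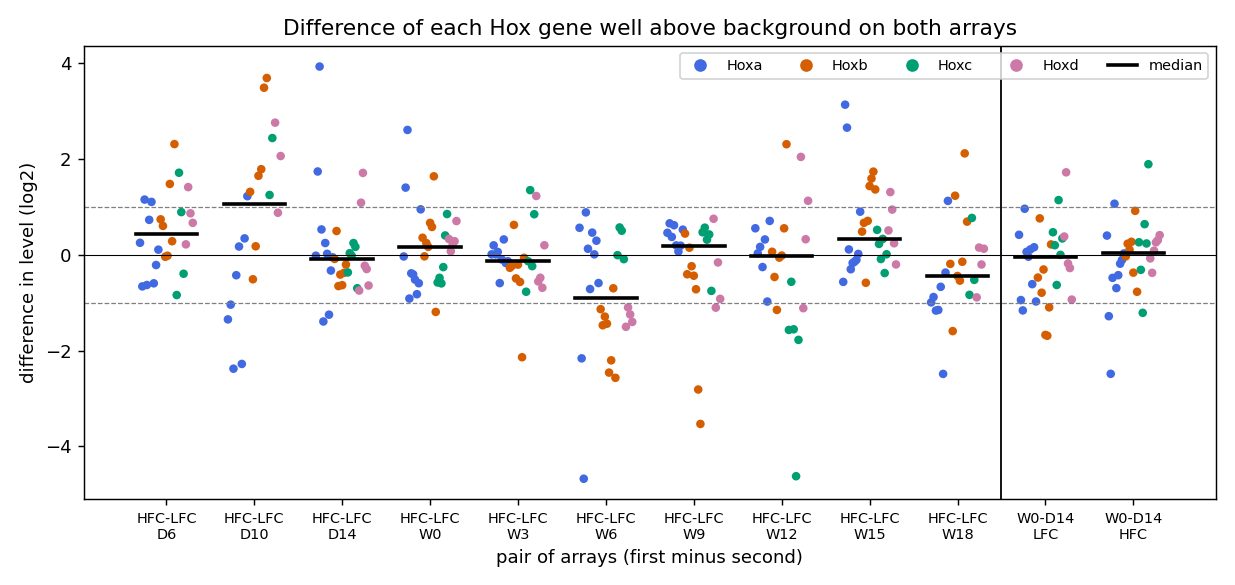
Difference in level (log2) of each Hox gene well above background on both arrays, for HFC minus LFC at each time point and, right of the line, for W0 minus D14 within LFC and within HFC; colours are the clusters, the black bar is the median and the dashed lines mark 1 log2. Most points lie above 0 at D10 and below 0 at W6, and the spread within a diet is similar to that at D14 and W0.

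Hox genes that are neighbours in a cluster had the most similar profiles over the arrays. Pearson's r between the levels of 2 expressed genes had a median of 0.50 over the 25 neighbouring pairs, 0.28 over the 73 other pairs of a cluster, 0.30 over the 29 pairs of the same paralog number in different clusters and 0.18 over the other 279 pairs. Over the 28 other arrays the medians were 0.49, 0.43, 0.19 and 0.13. These are descriptions over arrays that share their scaling, time points and cell makeup, and genes are not independent of each other. Hoxb6 and Hoxb7 were the most alike (r = 0.92, 28 arrays 0.85), and Hoxd8 and Hoxd9 had r = 0.84 (28 arrays 0.88). Across clusters, the highest r was that of Hoxb8 and Hoxd4 (0.86, 28 arrays 0.84), which differ in paralog number. Of the pairs with the same paralog number, Hoxa10 and Hoxd10 had the highest (r = 0.82, 28 arrays 0.81). Hoxa10 went about as closely with its neighbour Hoxa11 (r = 0.76, 28 arrays 0.83). Hoxa10 and Hoxc8 went in opposite directions (r = -0.53, 28 arrays -0.75). All these values of Hoxa10 include LFC W9, HFC W9 and LFC W12, where Hoxa10 and Hoxa11 were not well above background. Neighbours were not always alike, and Hoxc9 and Hoxc10 had r = -0.26.

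The 2 probes of a gene did not always give the same profile. They went together for Hoxa10 (r = 0.99 over 37 arrays), Hoxd9 (0.76) and Hoxb9 (0.70), so the low Hoxa10 levels were read by both of its probes. They did not for Hoxa3 (r = -0.14), Hoxc4 (-0.12) and Hoxb3 (0.14), whose probes were both well above background on at least 33 arrays. For Hoxb8 the probe used was well above background on 34 arrays and the other on 4. In the same order it was 30 and 9 for Hoxc10, 26 and 9 for Hoxd3, and 11 and 4 for Hoxd13. For Hoxa4 it was 37 and 19, with r = 0.42. So levels of these genes rest on 1 probe. The probes of Hoxa13 had r = 0.84 but were well above background on 5 and 4 arrays. That r is mostly between values below background and does not show a shared profile. Whether the probes of a gene read different transcripts was not tested.

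The genes through which Hox proteins act were detected on the same arrays. Of the 9 TALE cofactors, all were tested in the comparison of HFC with LFC and 0 passed. Meis2 ran from -1.20 to 2.23 over the 38 arrays, detected on all of them. The 9 genes had a median difference of 0.31 log2 (7 positive, 2 negative), and that of smallest p was Pbx2, -0.32 (SE 0.14, p = 0.0366, adjusted p = 0.545). Polycomb proteins keep silent Hox genes silent. Of the 16 Polycomb genes 0 passed, with a median of -0.06 (6 positive, 10 negative), and Bmi1, a subunit of the Polycomb complex that marks histone H2A, was at -0.51 (SE 0.22, p = 0.0413, adjusted p = 0.545). Of the 8 Trithorax and H3K27 demethylase genes, which keep Hox genes active, 0 passed (median -0.08, 2 positive and 6 negative), with Ash2l, of the complex that methylates histone H3, at -0.19 (SE 0.16) the smallest p.

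Retinoic acid, made by Aldh1a enzymes and broken down by Cyp26 enzymes, switches on anterior Hox genes in the embryo. Of its 14 genes 13 were tested and 0 passed (median 0.36, 7 positive and 6 negative). Of these, 3 had an unadjusted p below 0.05: the receptor Rxra, -0.54 (SE 0.15, p = 0.00369, adjusted p = 0.545), the breakdown enzyme Cyp26b1, -0.93 (SE 0.38, p = 0.0326, adjusted p = 0.545), and the retinol dehydrogenase Rdh10, 0.42 (SE 0.18, p = 0.0361, adjusted p = 0.545). Aldh1a2 was at 1.36 (SE 0.65). Of the 6 ParaHox and Cdx genes, relatives of the Hox genes, Gsx1 alone passed the filter, with a difference of -0.13 (SE 0.28), and the Cdx genes, which act upstream of posterior Hox genes in the embryo, were detected on 2 to 5 arrays. Of 6 other regulators 0 passed (median -0.06, 2 positive and 4 negative).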

How the data were processed

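The 38 scanner files hold intensity values deposited by the authors: per the file headers, Feature Extraction 10.5.1.1 made a background-subtracted and detrended processed signal that is not normalised between arrays (the submitters' processing notes name Agilent Feature Extraction 9.1). The deposited series table of log2 ratios to the LFC array was not used here. Spots marked as outliers and control spots were left out, the array's log2 75th percentile was subtracted from log2 processed signals, and spots of a probe were averaged (numpy 2.4.6, pandas 2.3.3). A gene is represented by its probe of highest mean level. Hox genes were matched by name, and paralog numbers 1 to 3, 4 to 8 and 9 to 13 were called anterior, central and posterior. Probes marked well above background by a share of 0.5 or more of the arrays of any diet were tested with limma 3.58.1 in R 4.3.3 (lmFit, eBayes, two-sided, Benjamini-Hochberg over all probes, threshold 0.05) in 9 comparisons, with the time point as a block except for slopes within a diet. Weeks were counted from day 14. In each comparison the Hox genes past the threshold were to be named, and otherwise the 3 of smallest p (1 gene among these is not reported here). At single time points the 3 of largest difference among genes well above background on both arrays were named, and values that are bounds were added where they stood out. "At least" folds set the brighter array against the higher of the dim value and the lowest signal well above background on its array. The number of arrays limits the precision. The p-values rest on how much the diet differences varied between time points, or, for changes with time, on the spread around a line. They do not measure the spread between animals of a diet and time point. The dose was taken from title and source name, since for 4 arrays (W15 and W18 of HF5 and HF20) the diet label has the doses exchanged; using the diet label instead changed no call. The scripts were tested on simulated data. The members, lists, tests and alternatives were chosen with earlier results of these data known. The files use mouse build mm9 and the RefSeq table GRCm38.p6, so no genome coordinates are given.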

Additional observations from a re-analysis of the deposited data

Results flagged for a closer look

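In groups of 6 to 10 arrays of 1 diet, 14 values stood apart from the others of their group by a gap larger than Dixon's 95% limit, of 150 groups examined (9.33%), where chance gives about 1 in 20. Of the 14, 10 were on arrays that also stand apart in depot markers, brightness or outlier spots. At week 6 these were Hoxa4, at -4.06 on HFC W6 and -3.71 on HF75 W6, and, on HFC W6 again, Hoxa5 at -4.34, Hoxa7 at 0.26 and Hoxc4 at -1.48, each the lowest of its diet. Hoxb8 was the lowest of HF5 on HF5 W6 (-8.44, the next array -3.64), where it was not well above background. Hoxa7 was the lowest of LFC on LFC W6 (-0.0350, the next 1.66). Hoxc9 was the lowest of LFC on LFC D10 (-6.28, the next -0.80).

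On HFC W9, Hoxa10 (-8.31, the next -3.71) and Hoxb9 (-4.72, the next -1.62) were the lowest of HFC and Hoxc8 (-1.72, the next -4.16) was the highest. Hoxc8 was also the highest of HF75 on HF75 W12 (-2.41). On HF5 W12, the dimmest array, 11 Hox genes were detected, the next array of HF5 having 24, and Hoxa3 was at -1.17, the highest of its diet, with the next at -3.59.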

How the results depend on the processing

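In 169 alternative fits of the 9 comparisons, 0 Hox probes passed the threshold. In 1 of them, the slope within HFC without W18, 1 probe of another gene passed. The most Hox probes with an unadjusted p below 0.05 were 5, in HFC against LFC without W6. Leaving out each time point in turn gave 0 Hox probes called in every comparison (lowest 0, highest 0). Of the 399 values of named genes under alternatives, 7 had the opposite sign, with these values. With the normexp background correction HFC minus LFC was -0.0472 for Hoxa9 and -0.57 for Hoxc5, HF5 minus HFC was 0.37 for Hoxd12, HF20 minus HFC was 0.10 for Hoxa4, and for the doses averaged it was 0.0823 for Hoxd12. With array brightness as a covariate HFC minus LFC was 0.0507 for Hoxa3. Again for the doses averaged, the difference from HFC was 0.0248 for Hoxc6 with scan day as the block. The cause was not tested. The methods' t-test of HFC against LFC called 0 probes after Benjamini-Hochberg adjustment, with 3.55% of probes at an unadjusted p below 0.05. None of these genes passed the threshold under any setting. When a gene had to be well above background on both arrays, fewer could be compared, and the number of Hox genes at least 1 log2 apart was 6 at D6, 3 at W9, 9 at W12, 7 at W15 and 7 at W18.

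The slide as a random block was run for the fits of weeks 3 to 18 only, because with 2 arrays per time point their residuals mirror each other. Arrays of different diets were paired by time point, as the block of the fits. By replicate number, no paired analysis was possible because no diet has replicate arrays at a time point. Genes below background have only bounds, and dim arrays (HF5 W12, HF75 W3) bound them loosely. The alternatives that leave out D6, D10 and W6, or W6 and HF5 W12, or that keep outlier spots, were chosen after seeing the data.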
